A study of Homo sapiens with 6 samples.

Results

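The 10 genes described here encode enzymes that make, rearrange or oversee disulfide bonds in the endoplasmic reticulum (ER): the protein disulfide isomerase family genes P4HB, PDIA3, PDIA4, PDIA5, PDIA6, TXNDC5 and TXNDC11, the retention chaperone gene ERP44, and the oxidase genes ERO1A and ERO1B. They were picked by their symbols from the 59609 gene names in the deposited tables, and all 10 were found and passed the filter on low values. RNA was measured by sequencing in 95D cells, a human lung cancer line labelled as wild type. The cells were seeded for 24 h in complete medium (DMEM with 10% serum) and then kept for 48 h in glutamine-free DMEM, in glucose-free DMEM or in control DMEM. Both deprived media held 10% dialyzed serum, from which small molecules have been removed, and dialyzed serum is not mentioned in the labels for control medium. In each comparison with control, the removal of the nutrient and the change of serum therefore cannot be told apart, whereas the deprived media share dialyzed serum. The values rest on 1 library of glutamine deprivation, 2 of glucose deprivation and 2 of control medium. A further column in the glutamine table is headed as glucose deprivation replicate 2, so it could not be assigned to a sample and is not analysed here.

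Secreted and membrane proteins gain their disulfide bonds in the ER lumen. Protein disulfide isomerases pass a disulfide from an active-site cysteine pair to a client protein, or shuffle wrong pairs in it, and are left reduced. ERO1 flavoproteins oxidize them again with molecular oxygen, releasing hydrogen peroxide, and ERP44 holds ERO1 proteins, which carry no ER retention signal of their own, in the early secretory pathway. Many genes of this system are textbook targets of the unfolded protein response, in which ATF6 and XBP1 act on chaperone genes through the ER stress element, whereas ERO1A is also known as a gene induced by low oxygen.

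Because the genes are discussed through their promoters as well as their RNA, stretches of promoter that hold the rarer of the searched motifs are shown first, from RefSeq on GRCh38.p14, 5′ to 3′ along the gene, all on the minus strand, with the matched letters in capitals. The promoter table spans 250 bases before to 50 after a transcript start, and 9 of the 10 genes had entries, 12 promoters in all. The full ER stress element was searched as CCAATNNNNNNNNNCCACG on both strands, and it was found in 27 of all 35116 promoters, or 0.0769%. Among the 9 genes it was present at PDIA6 (the second of its starts, bases -86 to -68) and at ERO1B (bases -243 to -225, on the opposite strand). The promoter of HSPA5, which encodes the ER chaperone BiP and is the classic bearer of this element, is given for comparison, with its match at bases -66 to -48.
PDIA6, chr2:10812833-10812891: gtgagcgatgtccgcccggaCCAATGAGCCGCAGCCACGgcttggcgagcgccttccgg
ERO1B, chr1:236282163-236282208: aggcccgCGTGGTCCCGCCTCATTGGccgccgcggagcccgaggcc
HSPA5, chr9:125241371-125241429: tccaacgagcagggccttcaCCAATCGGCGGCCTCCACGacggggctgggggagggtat

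PDIA4, which had the widest range of the 10 genes, held no full element in either of its promoters. The following stretch, from its first listed start, carries both parts at another spacing, CCAAT at bases -58 to -54 and the reverse complement of CCACG at bases -37 to -33. The second sequence shows TGACGTGG, the core bound by ATF6 or XBP1, in the promoter of TXNDC5 at bases -92 to -85 of its second start.
PDIA4, chr7:149028503-149028568: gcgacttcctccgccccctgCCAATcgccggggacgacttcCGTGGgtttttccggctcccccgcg
TXNDC5, chr6:7910142-7910189: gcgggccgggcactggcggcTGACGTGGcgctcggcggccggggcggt

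TGACGTGG occurred in 256 promoters (0.729%), and among the 9 genes it was found at TXNDC5 and at TXNDC11, where it lies at bases 5 to 12 after the start. It contains the reverse complement of CCACG, so each of these matches is also a match to that part. The parts alone are common: CCAAT was found in 34.6% and CCACG in 38.1% of all promoters, and each in 6 of the 9 genes. TGATGNAA, the ATF4 composite element, was found in 3.62% of all promoters and in 0 of the 9 genes. All of these shares are per promoter, whereas a gene is counted when any of its listed promoters holds a match. With 12 promoters for the 9 genes, the shares and the gene counts are not in like units. The matches are of letters in short windows and are not measured binding.

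**Figure D1:**
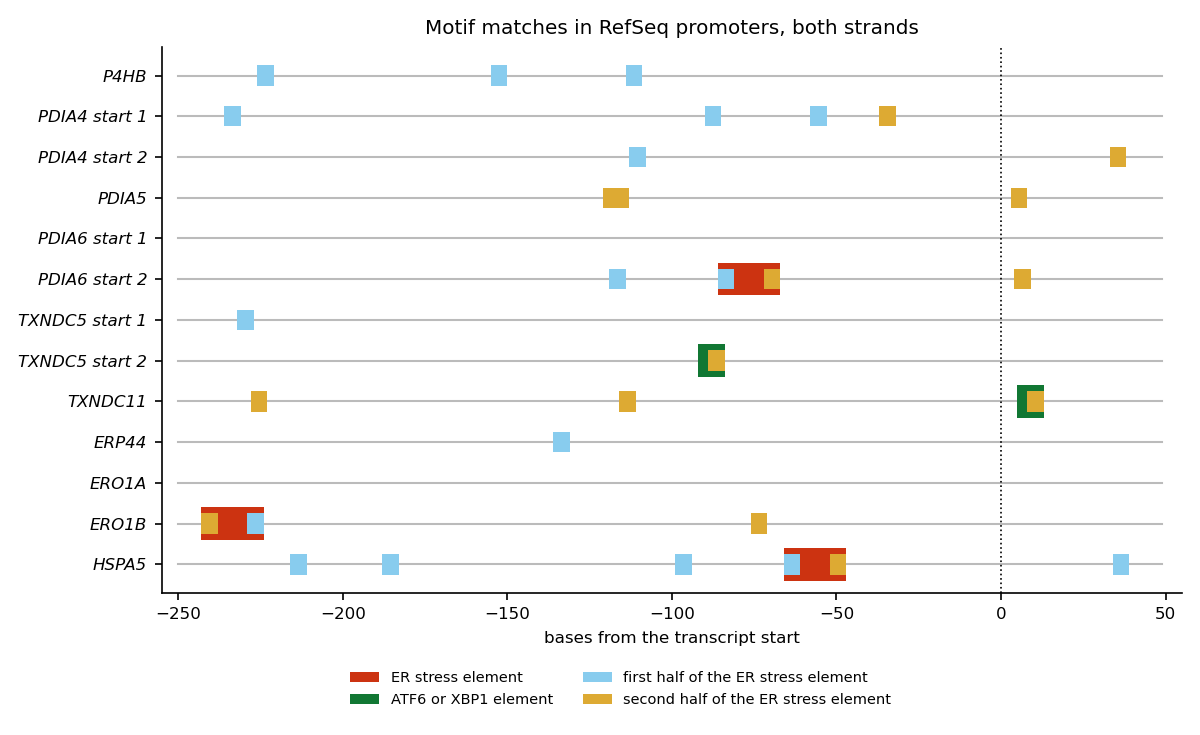
Matches in the promoters of the 9 genes with entries and of HSPA5, by distance in bases from the transcript start (dotted line), on both strands, with a row for each listed start. The full ER stress element (red) lies in the rows of PDIA6 start 2, ERO1B and HSPA5, and the ATF6 or XBP1 element (green) in those of TXNDC5 start 2 and TXNDC11.

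Levels below are FPKM, fragment counts adjusted for transcript length and library depth, divided by a scaling factor per library, and are called scaled FPKM. Inferred depth was 34520000 reads for glutamine deprivation, 36890000 and 35140000 reads for glucose deprivation and 35480000 and 48920000 reads for control, and a value of the 10 genes rests on 849 to 27930 inferred reads, a counting error of 0.598% to 3.43%. Over the genes tested, log2 levels correlated with r = 0.985 between the glucose-deprived libraries, with r = 0.991 between the controls and with r = 0.954 to 0.961 between groups; genes are not independent replicates. Of the markers of the labelled cell type, KRT8 and KRT18 were above 1 scaled FPKM in every library and KRT19 was listed at 0, so 2 of 6 epithelial markers were detected, with summed levels of 22.3 under glutamine deprivation, 20.9 to 24.8 under glucose deprivation and 25.4 to 26.6 in control. Of 5 mesenchymal markers 4 were above 1 scaled FPKM in at least 1 library, and their sum was 100.2 under glutamine deprivation, 147 to 162 under glucose deprivation and 87.1 to 88.5 in control, most of it VIM. NKX2-1, a lung lineage factor, was at 1.17 under glutamine deprivation, 0.720 and 0.709 under glucose deprivation and 1.07 and 1.09 in control, and the surfactant gene SFTPB was listed at 0. The 3 neuroendocrine markers summed to 8.75 under glutamine deprivation, 8.42 to 9.21 under glucose deprivation and 5.33 to 5.88 in control. None of the 5 leukocyte, 3 endothelial and 2 erythroid markers reached 1 scaled FPKM. Whether the changes in the mesenchymal and neuroendocrine sums have a part in the results was not tested, and in bulk RNA fewer cells of a kind and less RNA per cell cannot be told apart. The labels do not say whether the replicates were separate cultures. The p-values reflect the spread between the libraries at hand, which may be technical.

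Under glucose deprivation most of these genes were higher than in control, PDIA4 by far the most. Of the 10, 7 rose (P4HB, PDIA3, PDIA4, PDIA5, PDIA6, TXNDC11 and ERO1B), 1 fell (ERO1A) and 2 did not pass the threshold (TXNDC5 and ERP44), by limma at an adjusted p of 0.05 over the 16598 genes tested. Under glutamine deprivation 0 rose and 5 fell (PDIA3, PDIA4, PDIA6, TXNDC5 and ERP44). Between the deprivations 9 were lower under glutamine deprivation and 1, ERO1A, was higher; with each library scaled to its total, 3 of these calls were kept as lower (PDIA3, PDIA4 and PDIA6) and 0 as higher. In the first comparison 54.9% of all genes tested were called (26.6% higher and 28.3% lower), in the second 51.1% (24.7% higher and 26.5% lower) and in the third 44.7% (22.5% higher and 22.2% lower), so calls were common among all genes and the counts are to be read against these shares. The median log2 fold change of the 10 genes was 0.41 under glucose deprivation, -0.18 under glutamine deprivation and -0.44 between the deprivations, against 0.02, 0.04 and 0.01 over all genes tested. When libraries were scaled to their totals the median under glutamine deprivation was 0.12, against 0.30 over all genes tested with that scaling, so the 10 genes lay 0.18 below the median gene there and 0.23 below it here. Fold changes were computed on log2(FPKM + 1), which understates the change of low genes, and the comparisons with control share the control libraries.

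**Figure D2:**
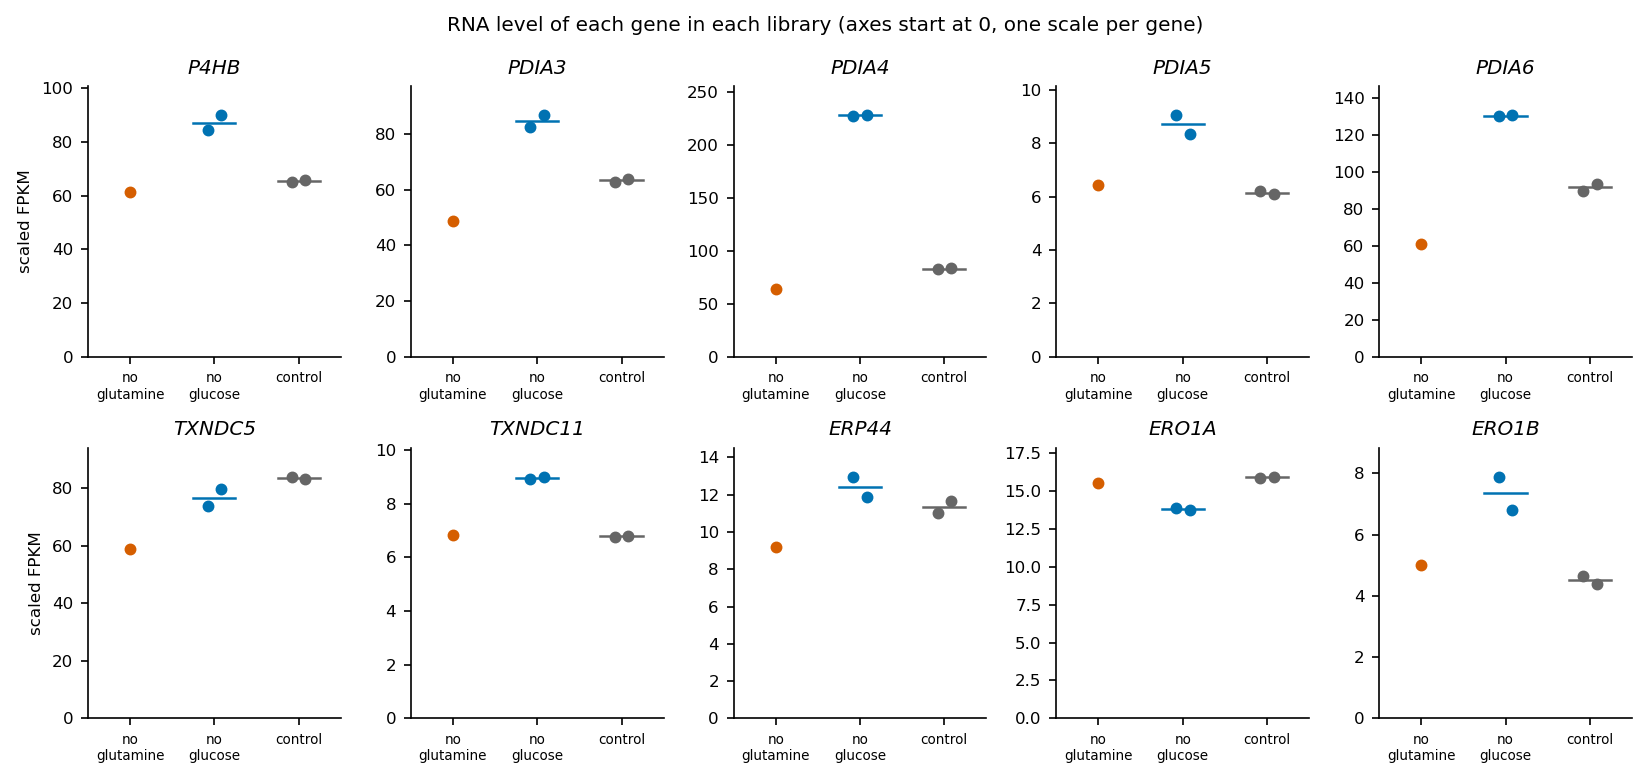
Scaled FPKM of each of the 10 genes in each library, for glutamine deprivation (1 library), glucose deprivation (2) and control (2), with a line at the mean where there are 2 libraries. PDIA4 stood at 228.1 and 228.6 under glucose deprivation against 82.7 and 83.8 in control, and ERO1A was lowest under glucose deprivation.

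PDIA4 encodes an isomerase with several thioredoxin-type domains that is found in complexes with BiP. The gene lies at chr7:149003062-149028641 on GRCh38 and overlaps no other gene in GENCODE 29. Its RNA was at 64.5 scaled FPKM in the glutamine-deprived library, 228.1 and 228.6 in the glucose-deprived libraries and 82.7 and 83.8 in the control libraries. Glucose deprivation was at the top and glutamine deprivation at the bottom, and replicates were close. On FPKM + 1 the value under glucose deprivation was 2.72-fold that in control (log2 fold change 1.44 ± 0.04 SE, adjusted p = 8.87e-07). Under glutamine deprivation the log2 fold change against control was -0.36 ± 0.05 (adjusted p = 0.00055), and between glutamine and glucose deprivation it was -1.81 ± 0.05 (adjusted p = 6.2e-06). Over the 4 ways of scaling the libraries that were tried, including none, the fall against control was between -0.41 and -0.35 relative to the median gene, and it was not called when each library was scaled to its total.

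PDIA6 encodes an isomerase that works with BiP on folding clients, and lies at chr2:10783391-10837977. ATP6V1C2 overlaps it on the opposite strand and RNU7-176P on the same strand. Its RNA was at 61.1 scaled FPKM under glutamine deprivation, 130.1 and 130.9 under glucose deprivation and 89.6 and 93.7 in control. As with PDIA4, the control lay between the deprivations. Against control the gene rose 1.42-fold under glucose deprivation (log2 fold change 0.51 ± 0.04, adjusted p = 4.81e-05) and fell under glutamine deprivation (-0.58 ± 0.05, adjusted p = 8.69e-05), where its fall was the largest of the 10 genes. The difference between glutamine and glucose deprivation was -1.08 ± 0.05 (adjusted p = 2.08e-05). Scaling to the total ended the call of the fall against control, with a log2 fold change of -0.26 (adjusted p = 0.331).

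PDIA3 encodes the isomerase that calnexin and calreticulin recruit to glycoproteins, and it also sits in the complex that loads peptides on MHC class I. It lies at chr15:43746392-43773279, where ELL3 and other genes overlap it on the opposite strand; the strand setting of the counting is not given in the sources used here, so their reads cannot be told apart. PDIA3 RNA was at 48.7 scaled FPKM under glutamine deprivation, 82.5 and 86.8 under glucose deprivation and 62.8 and 64.0 in control. Again glucose deprivation was highest and glutamine deprivation lowest. The log2 fold change was 0.41 ± 0.04 for glucose deprivation (adjusted p = 0.000137), -0.37 ± 0.05 for glutamine deprivation (adjusted p = 0.000698) and -0.79 ± 0.05 between the deprivations (adjusted p = 5.83e-05). With scaling to the total, the fall under glutamine deprivation was -0.06 and was not called (adjusted p = 0.84). The processed pseudogene PDIA3P1, which can share reads with PDIA3, was at 0.722 scaled FPKM under glutamine deprivation, 0.354 and 0.411 under glucose deprivation and 0.591 and 0.506 in control, below the filter.

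P4HB encodes protein disulfide isomerase itself, which is also the beta subunit of collagen prolyl 4-hydroxylase and a subunit of the microsomal triglyceride transfer protein. It lies at chr17:81843159-81860694, with an antisense gene annotated on the other strand. Its RNA was at 61.4 scaled FPKM under glutamine deprivation, 84.3 and 90.0 under glucose deprivation and 65.1 and 65.7 in control. Only the glucose-deprived libraries stood clearly apart. P4HB rose under glucose deprivation (0.41 ± 0.05, adjusted p = 0.000193), and its difference under glutamine deprivation was -0.09 ± 0.06 (adjusted p = 0.221), a value that turned positive under each of the other scalings but stayed -0.13 to -0.07 relative to the median gene. It was lower under glutamine than under glucose deprivation (-0.50 ± 0.06, adjusted p = 0.00038), a call lost with scaling to the total (-0.29, adjusted p = 0.318). Of the genes that encode the partners of P4HB, P4HA1, a catalytic subunit of prolyl hydroxylase, was at 18.4 scaled FPKM under glutamine deprivation, 28.4 under glucose deprivation and 24.8 in control as means. P4HA1 rose under glucose deprivation (0.19 ± 0.05, adjusted p = 0.0106) and fell under glutamine deprivation (-0.41 ± 0.06, adjusted p = 0.000752). That fall was not called with scaling to the total, where 0 of 14 tested partners and clients and 554 of all 16935 genes were called lower. P4HA2 passed the threshold in none of the 3 comparisons, and MTTP was below the filter.

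TXNDC5 encodes an isomerase with several thioredoxin domains, and it was the abundant gene of the family that did not share the rise under glucose deprivation. It lies at chr6:7881517-7910814 inside the annotated readthrough gene BLOC1S5-TXNDC5, with which it shares exons, so the split of reads between them is uncertain. Its RNA was at 58.7 scaled FPKM under glutamine deprivation, 73.8 and 79.7 under glucose deprivation and 84.1 and 83.2 in control. Both deprivations lay below control, glutamine deprivation the furthest. The log2 fold change was -0.12 ± 0.05 under glucose deprivation (adjusted p = 0.0609) and -0.50 ± 0.06 under glutamine deprivation (adjusted p = 0.000269). The glucose value passed the threshold with a filter of 5 FPKM (adjusted p = 0.0374) and with robust moderation (adjusted p = 0.0454). Without glucose deprivation replicate 2 that value was -0.17. Between glutamine and glucose deprivation the log2 fold change was -0.38 ± 0.06 (adjusted p = 0.00151). Scaling to the total ended both calls, with -0.19 under glutamine deprivation (adjusted p = 0.494) and -0.18 between the deprivations (adjusted p = 0.575). The readthrough gene, at 78.3 scaled FPKM under glutamine deprivation, 99.996 and 107 under glucose deprivation and 115 and 112 in control, gave -0.13 ± 0.05 (adjusted p = 0.0433) for glucose deprivation and -0.53 ± 0.06 (adjusted p = 0.000184) for glutamine deprivation.

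PDIA5 and TXNDC11 are the scarce members of the isomerase family in these cells. PDIA5, whose product has been linked to the activation of ATF6, lies at chr3:123067062-123225227, where SEC22A overlaps it on the same strand. It was at 6.46 scaled FPKM under glutamine deprivation, 9.07 and 8.37 under glucose deprivation and 6.22 and 6.09 in control. TXNDC11, an ER membrane protein gene known for its product's binding to the dual oxidases, lies at chr16:11679080-11742878. SNN and AC007613.1 overlap it on the opposite strand. TXNDC11 was at 6.81 scaled FPKM under glutamine deprivation, 8.90 and 9.01 under glucose deprivation and 6.76 and 6.81 in control. For both, the glucose-deprived libraries stood above all others and the glutamine-deprived library lay close to control. PDIA5 rose by 0.44 ± 0.06 on the log2 scale under glucose deprivation (adjusted p = 0.000354), with 0.06 ± 0.07 under glutamine deprivation (adjusted p = 0.494). For TXNDC11 the values were 0.35 ± 0.05 (adjusted p = 0.000479) and 0.00494 ± 0.06 (adjusted p = 0.951). Both were lower under glutamine than under glucose deprivation, PDIA5 by -0.38 ± 0.07 (adjusted p = 0.00301) and TXNDC11 by -0.35 ± 0.06 (adjusted p = 0.00214). With scaling to the total neither difference was called (-0.20, adjusted p = 0.423, for PDIA5 and -0.17, adjusted p = 0.516, for TXNDC11).

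ERP44 encodes a thioredoxin-type chaperone that captures unassembled proteins and ERO1 oxidases in the early secretory pathway and returns them to the ER through KDEL receptors. The gene lies at chr9:99979179-100099040, where UPF3AP3 overlaps it on the same strand. Its RNA was at 9.19 scaled FPKM under glutamine deprivation, 13.0 and 11.9 under glucose deprivation and 11.04 and 11.7 in control. The glutamine-deprived library was the lowest, and the second glucose-deprived library lay next to the second control. The log2 fold change under glucose deprivation was 0.12 ± 0.06 (adjusted p = 0.106), and 0.18 without glucose deprivation replicate 2. With upper-quartile scaling the gene was called higher there (0.21, adjusted p = 0.016). ERP44 fell under glutamine deprivation (-0.28 ± 0.07, adjusted p = 0.0105), but 6 of 15 alternatives lost the call. These were no scaling (-0.13, adjusted p = 0.214), upper-quartile scaling (-0.11, adjusted p = 0.187), scaling to the total (0.0149, adjusted p = 0.957), no filter (adjusted p = 0.103), no variance trend (adjusted p = 0.0662) and leaving out control replicate 2 (-0.25, adjusted p = 0.0881). Between glutamine and glucose deprivation the log2 fold change was -0.40 ± 0.07 (adjusted p = 0.00243), and it was not called with scaling to the total (-0.21, adjusted p = 0.426) or without the filter (adjusted p = 0.0626). Of its partners, LMAN1, a cargo receptor gene, fell under glutamine deprivation (-0.49 ± 0.05, adjusted p = 0.000128), while ERAP1 (0.40 ± 0.07, adjusted p = 0.00147) and SUMF1 (0.20 ± 0.06, adjusted p = 0.0168), which encode enzymes that ERP44 retains, rose under glucose deprivation. Of the genes of its KDEL receptors, KDELR2 fell in the comparisons of glucose deprivation (-0.29 ± 0.04, adjusted p = 0.000742) and of glutamine deprivation (-0.39 ± 0.05, adjusted p = 0.000549) with control. KDELR3 fell under glucose deprivation (-0.27 ± 0.07, adjusted p = 0.0107), with -0.16 ± 0.08 under glutamine deprivation (adjusted p = 0.144). KDELR1 did not fall. Its level was 42.5 scaled FPKM under glutamine deprivation, 42.9 and 45.2 under glucose deprivation and 41.4 and 39.8 in control. SURF4, a cargo receptor gene, fell in both (-0.23 ± 0.04, adjusted p = 0.00178, and -0.38 ± 0.05, adjusted p = 0.000411). With scaling to the total 0 of 14 tested partners and clients were called lower in either comparison with control. The falls of LMAN1, KDELR2, KDELR3 and SURF4 were therefore not called with that scaling. Over all 16935 genes tested with it, 1765 were called lower under glucose deprivation and 554 under glutamine deprivation. Lower calls were thus fewer among all genes, and the count of 0 is no result about these genes. Under glucose deprivation scaling to the total left 3 genes of that list called higher, against 5 here, and 3733 of all genes.

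The genes of the oxidases moved in opposite directions under glucose deprivation. ERO1B, the paralogue best known from pancreas, lies at chr1:236215555-236281985, where GPR137B and RNU2-70P overlap it on the opposite strand. ERO1B was at 4.99 scaled FPKM under glutamine deprivation, 7.89 and 6.81 under glucose deprivation and 4.65 and 4.40 in control. Its glucose-deprived libraries were above all others, with a mean of 7.35 against 4.52 in control. On FPKM + 1 that rise was 1.51-fold (log2 fold change 0.59 ± 0.07, adjusted p = 0.000235). Under glutamine deprivation the value was 0.12 ± 0.09 (adjusted p = 0.28), and between the deprivations -0.48 ± 0.09 (adjusted p = 0.00292), not called with scaling to the total (-0.30, adjusted p = 0.194) or without the filter (adjusted p = 0.0787).

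ERO1A, the widely expressed paralogue, lies at chr14:52639916-52695900 with an antisense gene on the other strand. It was at 15.5 scaled FPKM under glutamine deprivation, 13.9 and 13.8 under glucose deprivation and 15.8 and 16.0 in control, the narrowest range of the 10 genes, 0.20 on the log2 scale. The glucose-deprived libraries were the lowest and the glutamine-deprived library lay just under both controls. ERO1A fell under glucose deprivation (-0.19 ± 0.04, adjusted p = 0.00434), and the call was lost without control replicate 2 (-0.20, adjusted p = 0.0527), with scaling to the total (-0.08, adjusted p = 0.719) and with upper-quartile scaling (-0.10, adjusted p = 0.0559). Under glutamine deprivation the log2 fold change was -0.03 ± 0.05 (adjusted p = 0.608), positive under the other scalings but -0.08 to -0.03 relative to the median gene. Between the deprivations it was 0.16 ± 0.05 (adjusted p = 0.0302). That call was lost without glucose deprivation replicate 1 (adjusted p = 0.0527), glucose deprivation replicate 2 (0.0631), control replicate 1 (0.0939) or control replicate 2 (0.0954).

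**Figure D3:**
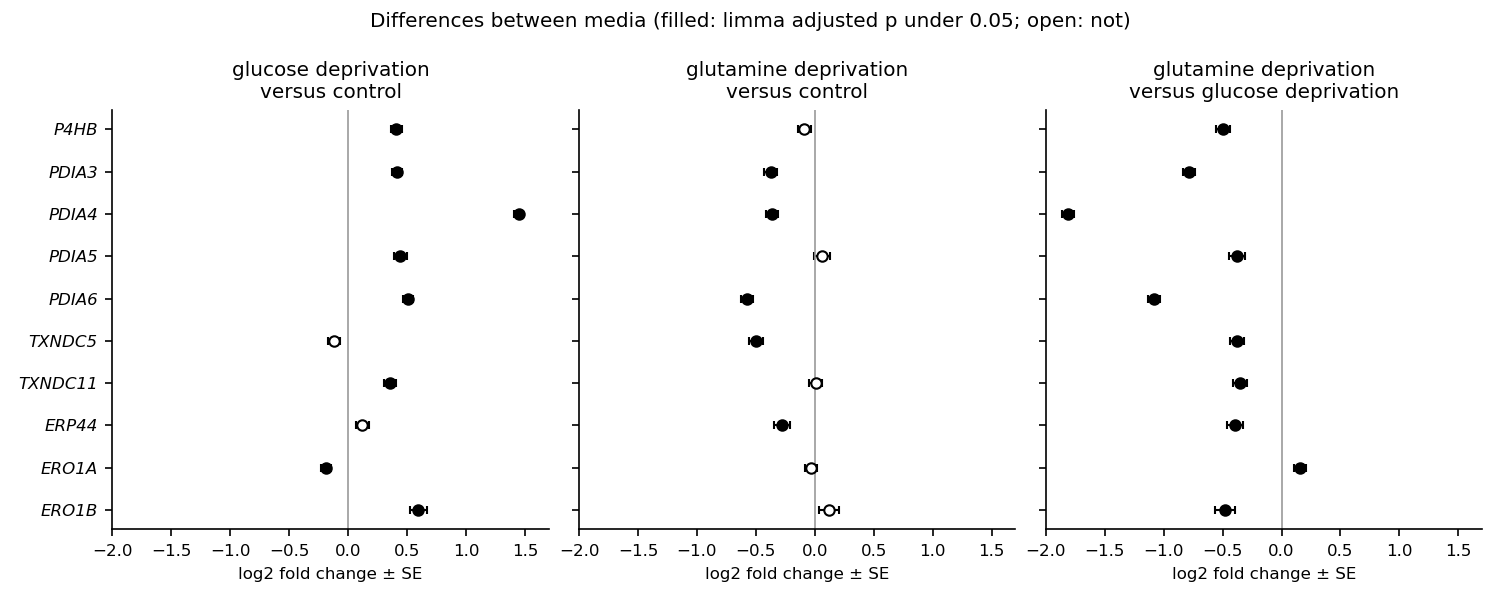
Log2 fold change ± SE of each gene in the 3 comparisons, filled where the limma adjusted p was under 0.05. PDIA4 lies furthest out in the first and last panel (1.44 and -1.81), and ERO1A lies on the other side of 0 from most genes in both. In the middle panel P4HB and ERO1A, both open, turn positive when the scaling is left out, taken from the total or from the upper quartile, and ERP44 when it is taken from the total, while all 3 stay below the median gene of each scaling.

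Ratios and shares within a library do not depend on the scaling between libraries. The ratio of ERO1A to ERO1B, both per length, was 3.11 under glutamine deprivation, 1.76 and 2.02 under glucose deprivation and 3.41 and 3.64 in control, so the glucose-deprived libraries were the lowest. PDIA4 to PDIA3 stood at 1.33 under glutamine deprivation, 2.76 and 2.63 under glucose deprivation and 1.32 and 1.31 in control. In this ratio the glutamine-deprived library lay just above the controls, although both genes were lower there. PDIA6 to P4HB was 0.995 under glutamine deprivation, 1.54 and 1.45 under glucose deprivation and 1.38 and 1.43 in control, so here glutamine deprivation was the one apart. ERO1A to P4HB, the oxidase against its main substrate, was 0.253 under glutamine deprivation, 0.165 and 0.153 under glucose deprivation and 0.243 in both controls.

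The summed level of the 10 genes was 337 scaled FPKM under glutamine deprivation, 659 ± 10.1 under glucose deprivation and 432 ± 4.60 in control (SD, n = 2 for the pairs). As a share of all FPKM in a library it was 0.0734% under glutamine deprivation, 0.125% ± 0.0131 under glucose deprivation and 0.0754% ± 0.00470 in control, so the glutamine-deprived library was within the spread of the controls on that measure. A share of all FPKM amounts to scaling to the total, so it is no separate check on the scaling. Within the sum PDIA4 made up 19.1% under glutamine deprivation, 34.7% ± 0.480 under glucose deprivation and 19.3% ± 0.0204 in control. TXNDC5 made up 17.4% under glutamine deprivation, 11.7% ± 0.460 under glucose deprivation and 19.4% ± 0.352 in control. The readthrough gene BLOC1S5-TXNDC5, at a mean of 114 scaled FPKM in control, is left out of the sum and of the order below. The shares and the rank of TXNDC5 thus depend on an uncertain split of reads between the entries. ERO1A made up 4.61% under glutamine deprivation, 2.10% ± 0.0423 under glucose deprivation and 3.68% ± 0.0182 in control. In control the order per length was PDIA6 (91.7 ± 2.91 scaled FPKM), then TXNDC5 (83.6 ± 0.633) and PDIA4 (83.3 ± 0.798), which did not differ beyond their spread, then P4HB (65.4 ± 0.403) and PDIA3 (63.4 ± 0.821). Below them came ERO1A (15.9 ± 0.0908), ERP44 (11.3 ± 0.444), TXNDC11 (6.79 ± 0.0336), PDIA5 (6.16 ± 0.0885) and ERO1B (4.52 ± 0.180). Under glucose deprivation PDIA4 headed the order (228 ± 0.353) and PDIA6 (131 ± 0.549) followed it. In the glutamine-deprived library PDIA4 (64.5), P4HB (61.4), PDIA6 (61.1) and TXNDC5 (58.7) lay close together, with PDIA3 (48.7) below them and no replicate to give a spread.

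**Figure D4:**
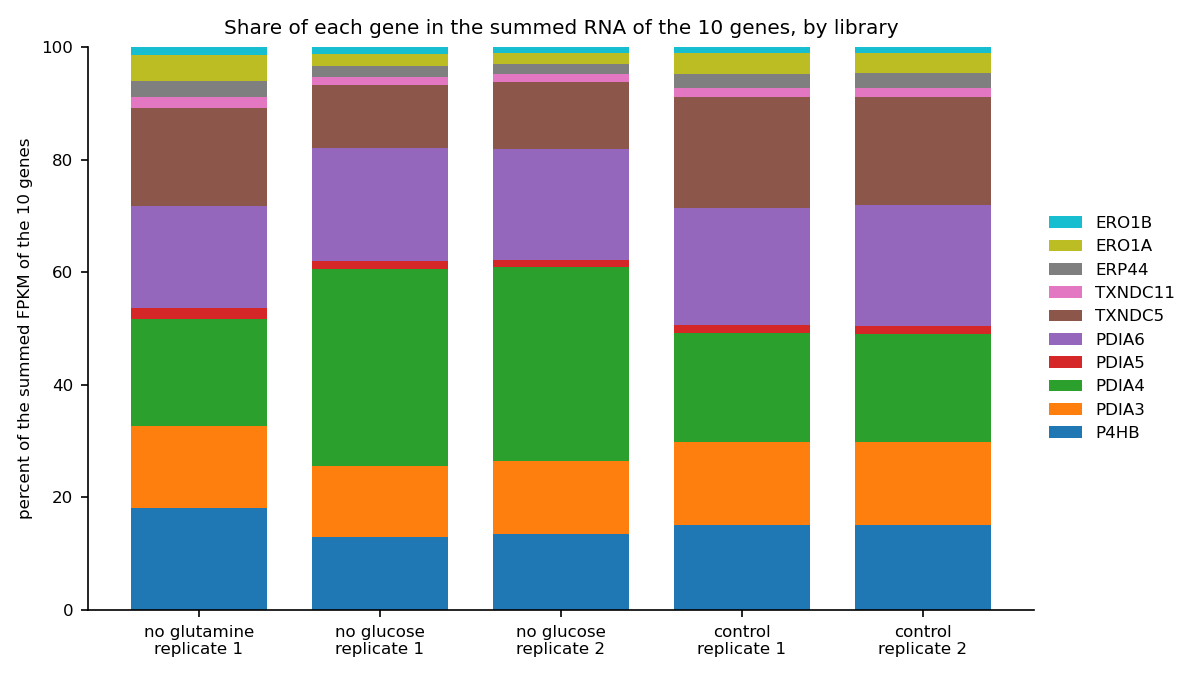
Percent of the summed FPKM of the 10 genes that each gene took in each of the 5 libraries, stacked to 100. The PDIA4 segment is the widest under glucose deprivation, at 34.7% on average against 19.3% in control, and TXNDC5 and ERO1A take a smaller share there.

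The other genes of ER folding were described through lists of textbook members. Of 27 ER chaperone genes and ATF6 or XBP1 targets, 19 rose and 3 fell under glucose deprivation (median log2 fold change 0.44), and 6 rose and 17 fell under glutamine deprivation (median -0.32). The glutamine counts were 7 and 13 with no scaling, 8 and 14 with upper-quartile scaling and 6 and 3 with scaling to the total (median -0.04), and the median stayed -0.36 to -0.34 relative to the median gene. The glucose counts were 21 and 3, 23 and 3, and 17 and 0 with these scalings. HSPA5, the BiP gene and partner of PDIA4 and PDIA6, was at 66.0 scaled FPKM under glutamine deprivation, 177 and 158 under glucose deprivation and 80.4 and 77.6 in control. It rose in the glucose comparison (1.07 ± 0.06, adjusted p = 8.95e-06) and fell in the glutamine comparison (-0.26 ± 0.07, adjusted p = 0.0196). CALR, the calreticulin gene and partner of PDIA3, was at 95.6 scaled FPKM under glutamine deprivation, 286 and 294 under glucose deprivation and 155 and 159 in control, with log2 fold changes of 0.88 ± 0.04 (adjusted p = 6.04e-06) for glucose deprivation and -0.71 ± 0.05 (adjusted p = 4.08e-05) for glutamine deprivation. CANX, the calnexin gene, gave 0.44 ± 0.05 (adjusted p = 0.000192) and -0.43 ± 0.06 (adjusted p = 0.000662) in the same comparisons. The peptide-loading partner TAPBP, tapasin, went another way, higher under glutamine deprivation (0.43 ± 0.09, adjusted p = 0.0057) and not called under glucose deprivation (-0.19 ± 0.08, adjusted p = 0.0667). The largest rises of the list under glutamine deprivation were those of SYVN1 (0.89 ± 0.07, adjusted p = 6.67e-05), ERN1 and HERPUD1 (0.42 ± 0.05, adjusted p = 0.000479). ERN1 was at 2.71 scaled FPKM there, against 1.61 and 1.63 in control. Between glutamine and glucose deprivation 3 genes of the list were higher and 20 lower, with a median of -0.75.

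The list of ATF4 and CHOP targets, the amino acid and stress response genes, did not separate the deprivations in this way. Of its 19 tested genes 17 rose and 0 fell under glucose deprivation (median 0.79), and 16 rose and 0 fell under glutamine deprivation (median 0.80). Between the deprivations 6 were higher and 8 lower under glutamine deprivation, with a median of -0.07, which was -0.08 to -0.05 relative to the median gene over the 4 scalings. DDIT3, which encodes CHOP, a known activator of ERO1A, rose in both, by 2.48 ± 0.05 under glucose deprivation (adjusted p = 2.01e-07) and by 1.38 ± 0.06 under glutamine deprivation (adjusted p = 1.91e-05), on the log2 scale. ERO1A fell in the first of these comparisons and was not called in the second. Of 18 tested hypoxia targets 7 rose and 6 fell under glucose deprivation and 1 rose and 9 fell under glutamine deprivation. The glutamine counts were 4 and 6 with no scaling, 5 and 6 with upper-quartile scaling and 2 and 1 with scaling to the total. The glucose counts were 7 and 5, 8 and 3, and 6 and 3 with these scalings. VEGFA rose in both (0.86 ± 0.05, adjusted p = 7.89e-06, and 0.59 ± 0.06, adjusted p = 9.98e-05) and LDHA fell in both (-0.78 ± 0.05, adjusted p = 1.49e-05, and -0.58 ± 0.06, adjusted p = 0.000168).

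Family members outside the 10 were mixed. Of 15 listed, 9 were tested, 2 of which rose and 3 fell under glucose deprivation, while 1 rose and 7 fell under glutamine deprivation (medians -0.03 and -0.40). With scaling to the total 1 rose and 1 fell under glutamine deprivation, and 1 rose and 5 fell with either of the other scalings. Under glucose deprivation 2 rose and 1 fell with scaling to the total, and 2 rose and 3 fell with either of the other scalings. DNAJC10, a reductase that helps degradation of misfolded proteins, and ERP29, a redox-inactive relative, followed PDIA6 in direction. DNAJC10 gave 0.49 ± 0.05 (adjusted p = 0.000174) under glucose deprivation and -0.41 ± 0.07 (adjusted p = 0.0013) under glutamine deprivation, and ERP29 gave 0.30 ± 0.04 (adjusted p = 0.000773) and -0.55 ± 0.05 (adjusted p = 0.000129). The genes of membrane-bound TMX1 and TMX2 and of TXNDC12 fell in both, TMX1 by -0.38 ± 0.04 (adjusted p = 0.000176) under glucose deprivation and -0.86 ± 0.05 (adjusted p = 2.51e-05) under glutamine deprivation. PDIA2, a scarce pancreatic relative, is the 1 gene counted as higher under glutamine deprivation (0.60 ± 0.15). It was at 1.55 scaled FPKM there, 0.803 and 0.704 under glucose deprivation and 0.735 and 0.631 in control. The gene thus passed the filter only through the glutamine-deprived library, where it was high, and its call is no independent result. Of 14 tested partners and clients 5 rose and 3 fell under glucose deprivation, and 4 rose and 4 fell under glutamine deprivation, with medians of -0.01 and -0.11. Over the 4 scalings these medians lay -0.04 to -0.03 and -0.16 to -0.12 from the median gene. With scaling to the total 3 rose and 0 fell under glucose deprivation, and 4 rose and 0 fell under glutamine deprivation. With no scaling the counts were 6 and 3 for glucose and 5 and 4 for glutamine deprivation. Upper-quartile scaling gave 6 and 2, and 5 and 4. Over all 16935 genes tested with scaling to the total, 3733 rose and 1765 fell under glucose deprivation. Under glutamine deprivation 5653 rose and 554 fell with that scaling.

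Among 18 tested genes of other thiol oxidation and reduction in the ER, 4 rose and 8 fell under glucose deprivation and 3 rose and 8 fell under glutamine deprivation, where the counts were 5 and 7 with no scaling or upper-quartile scaling and 3 and 1 with scaling to the total. The glucose counts were 4 and 7 with no scaling, 5 and 7 with upper-quartile scaling and 4 and 5 with scaling to the total. PRDX4, a peroxiredoxin that uses the peroxide made by ERO1 to oxidize isomerases, was at 75.03 scaled FPKM under glutamine deprivation, 74.6 and 78.6 under glucose deprivation and 112 and 114 in control. Both deprivations lay below both controls, with log2 fold changes of -0.55 ± 0.04 under glucose deprivation (adjusted p = 3.44e-05) and -0.58 ± 0.05 under glutamine deprivation (adjusted p = 9e-05), and -0.03 ± 0.05 between them (adjusted p = 0.689). VKORC1, the vitamin K epoxide reductase, fell in both as well (-0.31 ± 0.06, adjusted p = 0.00392, and -0.41 ± 0.08, adjusted p = 0.00307). GPX8 passed the threshold in none of the 3 comparisons, GPX7 did not reach the filter, and QSOX1 was called only between the deprivations (0.20 ± 0.07, adjusted p = 0.0475). H6PD, which makes NADPH inside the ER, rose in both (0.71 ± 0.05, adjusted p = 2.34e-05, and 0.75 ± 0.06, adjusted p = 6.33e-05).

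**Figure D5:**
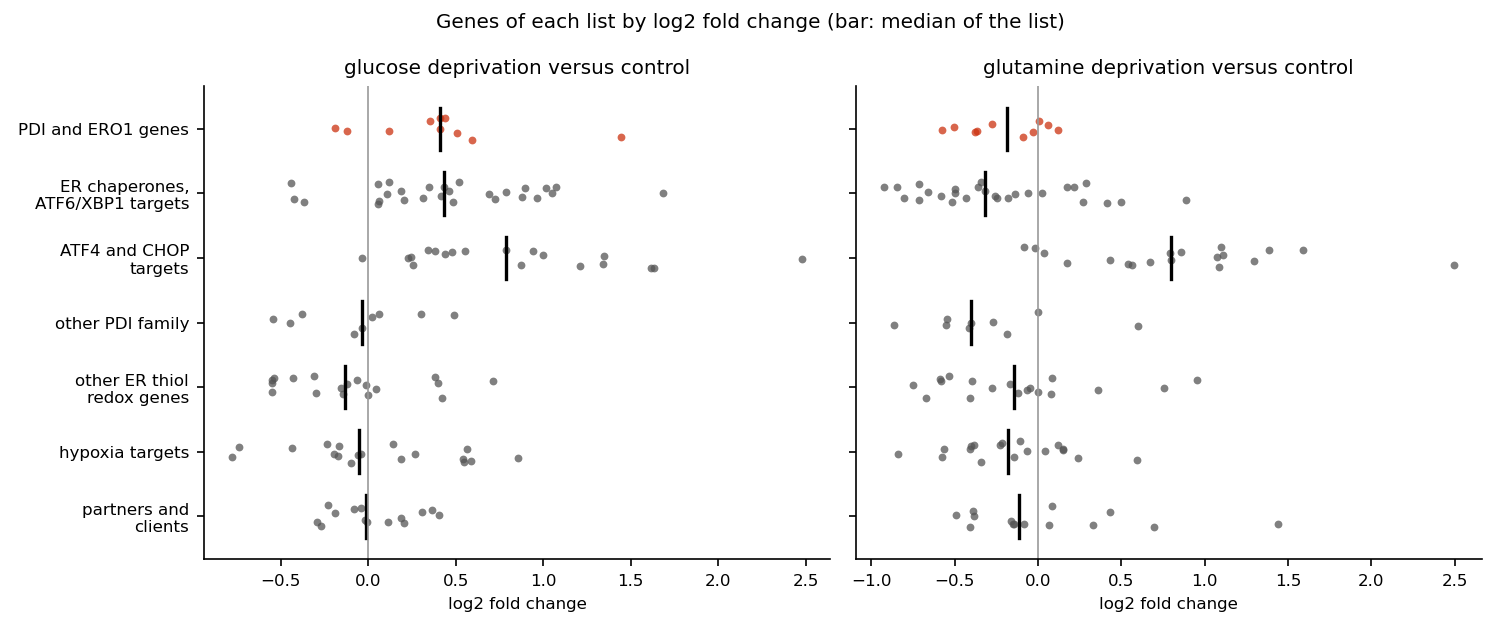
Log2 fold change of each tested gene by list, for glucose deprivation against control (left) and glutamine deprivation against control (right); the bar is the median. The 10 genes (red) have a median of 0.41 on the left and -0.18 on the right, next to 0.44 and -0.32 for the ER chaperone list and 0.79 and 0.80 for the ATF4 and CHOP list. With scaling to the total the right-hand median of the 10 genes is 0.12 against 0.30 over all genes tested, and those of the hypoxia, partner and other thiol redox lists are also above 0 and below that median.

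Directions under glutamine deprivation depend on how the libraries are put on one scale. Relative to the scaling used here, the median of all genes in this comparison moved up by 0.13 with no scaling, by 0.14 with upper-quartile scaling and by 0.25 with scaling to the total, and the share of calls that were higher was 48.2% here against 67.4%, 68.2% and 91.1%. Of the 10 genes, 1 was then called higher and 4 lower with no scaling, 4 higher and 4 lower with upper-quartile scaling, and 0 in either direction with scaling to the total. Against the median gene of each scaling, the fall was -0.62 to -0.56 for PDIA6, -0.55 to -0.48 for TXNDC5, -0.42 to -0.36 for PDIA3 and -0.32 to -0.28 for ERP44. The fall of HSPA5 (-0.26) was about the size of the largest of these shifts. Under glucose deprivation the share of higher calls was 48.4% here, 60.0% with upper-quartile scaling and 67.9% with scaling to the total, and between the deprivations it was 50.4% here, 68.1% with no scaling, 62.5% and 85.6%. The rises of P4HB, PDIA3, PDIA4, PDIA5, PDIA6, TXNDC11 and ERO1B under glucose deprivation passed the threshold under all 16 alternatives run, and the lower levels of PDIA3, PDIA4 and PDIA6 under glutamine than under glucose deprivation under all 15.

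The genes whose pattern over the 5 libraries was most like that of the 3 members with the widest range were found by the root mean square difference of centred log2 levels. For PDIA4 they were SLIT2-IT1 (0.117), RNU6-1088P (0.118) and KRTAP19-1 (0.152), and RNU6-1088P was listed at 0 in 2 libraries. For PDIA6 they were SQLE (0.0336), a sterol synthesis enzyme gene, DNAJB11 (0.0474), a BiP co-chaperone gene, and OSTC (0.0517), a subunit of oligosaccharyltransferase. For PDIA3 they were PMF1 (0.0172), HYI (0.0214) and FUNDC2 (0.0242). The distances for PDIA4 were larger than those for PDIA6 and PDIA3.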

How the data were processed

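The libraries were made from total RNA after ribosomal RNA removal and sequenced in pairs (150 bases a read), according to the labels' protocols. HISAT2 2.0.5 and StringTie on hg38 are named in the submitters' processing notes; for the annotation, the strand setting and the StringTie version, nothing is given in the sources used here. FPKM was inferred as the unit of the deposited values, since they are fractional and since single-exon genes of low level fall on whole reads (95.3% to 95.9% within 0.05 reads), which also gave the inferred depth. These points hold for any unit scaled by length and depth. The values of a library summed to 493129 to 571208, with no common total. No header names the unit. Of 6 labelled libraries 5 were used, and 1 value column was left out because its name fits another sample.

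FPKM were divided by trimmed-mean factors (30% of ratios and 5% of abundances trimmed): 1.08 for glutamine deprivation, 1.01 and 0.979 for glucose deprivation, 0.960 and 0.971 for control. The 16598 genes that reached 1 scaled FPKM in any library were tested on log2(FPKM + 1) with limma 3.58.1 (R 4.3.3). One fit held a coefficient per group, with 2 residual degrees of freedom; the single library of glutamine deprivation has no spread of its own and takes that of the other groups. The variance trend ran over inferred reads (mean FPKM times exon length in GENCODE 29, or the median of 1058 bases). Adjusted p-values are Benjamini-Hochberg over all genes tested, two-sided. The procedure was also run on simulated libraries, in which far fewer genes changed than were called here. That run therefore does not test the scaling. Counting errors cover counting only. The 10 genes and the lists were chosen with earlier results of these data known. All 10 genes are named. From the lists, direct partners of the 10 and genes among the 3 largest changes in each direction are named. The ratios of ERO1A to P4HB and the order of levels were added after the data had been seen. Motifs were searched in RefSeq promoters (GRCh38.p14). Alternatives covered scaling, pseudocount, filter, variance trend, replicate block and each library left out.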

Additional observations from a re-analysis of the deposited data

How the results depend on the processing

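Of 460 repeats for the 10 genes, most changes of call came from the scaling. Scaling to the total gave 0 genes lower under glucose deprivation with 5498 genes called in all, 0 lower under glutamine deprivation, and 0 higher and 3 lower between the deprivations with 4269 genes called in all. Upper-quartile scaling gave 8 higher and 0 lower under glucose deprivation and 4 higher under glutamine deprivation, and no scaling gave 1 higher there. The filter of 5 FPKM and robust moderation each gave 2 lower under glucose deprivation. Leaving out 1 library at a time gave 0 to 2 lower and 5704 to 9102 genes called under glucose deprivation, 5552 to 8465 genes called under glutamine deprivation, and 0 higher between the deprivations; the lowest counts came without control replicate 1 or 2. Without a variance trend 0 were higher between the deprivations. The cause of these changes was not tested. Under glutamine deprivation the sign turned for P4HB with no scaling (0.0736), upper-quartile scaling (0.0864) and scaling to the total (0.23), for ERO1A likewise (0.12, 0.14 and 0.27) and for ERP44 with scaling to the total (0.0149). TXNDC11 ranged from -0.0116 (without control replicate 1) to 0.00281 as libraries were left out, with -0.00344 without control replicate 2. With the filter dropped, ERP44 and ERO1B were no longer called between the deprivations (adjusted p = 0.0626 and 0.0787).

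Replicate numbers are shared by the glucose-deprived and control libraries, but their deviations did not go together (r = -0.0317 over 14451 genes). That rests on a single difference per group, so it cannot tell whether libraries of the same number were handled together. With the replicate block 0 genes were higher between the deprivations, since ERO1A was at 0.16 with an adjusted p of 0.0983, and all other calls for the 10 genes were kept. The block moved the genes called to 8839, 7586 and 6387 for glucose deprivation, glutamine deprivation and the direct comparison. The planned run on the combined table was not made, because 1 of its column names stands above more than 1 column. The tests rest on 2 residual degrees of freedom and 1 glutamine-deprived library, and the counting error of the 10 genes was at most 3.43%.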
